A study of Mus musculus with 24 samples.

Results

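The 10 genes described here encode the tuberous sclerosis complex (TSC) and the 2 complexes built around the kinase mTOR. They are Tsc1, Tsc2 and Tbc1d7 for the TSC complex, Mtor, Mlst8 and Deptor as subunits common to both mTOR complexes, Rptor and Akt1s1 for mTOR complex 1 (mTORC1), and Rictor and Mapkap1 for mTOR complex 2 (mTORC2). They were taken by name from the 23845 genes listed for RNA and the 20436 listed for ribosome-protected fragments (RPFs, or footprints). All 10 had enough counts to be tested in both assays, among 12785 genes for which this was so. The question was whether the loss of one copy of Tsc2 went along with a change of its partners, of mTORC1 subunits or of mTORC2 subunits.

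RNA-seq and ribosome profiling were carried out on acute hippocampal slices of wild-type (WT) and Tsc2+/- littermate mice, males of 28 to 42 days. The mutants carried a germline deletion made by crossing CMV-Cre mice, in which Cre acts in all tissues, to Tsc2flox mice, and the line was bred on C57BL/6J. The deletion is therefore not limited to one cell type of the slice. Slices received vehicle (artificial cerebrospinal fluid) or 100 µM DHPG, which activates the metabotropic glutamate receptors of group I, for 5 min. The area CA3 had been cut off, every library came from the pooled slices of more than one mouse, and each of the 4 combinations of genotype and treatment had 3 libraries per assay.

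The TSC complex is a brake on cell growth. TSC2 carries the GTPase-activating domain that switches off the small GTPase Rheb, TSC1 stabilises TSC2, and TBC1D7 is a smaller subunit that helps hold the complex together. Active Rheb turns on mTORC1, which drives protein synthesis and represses autophagy, whereas mTORC2 phosphorylates Akt and related kinases and does not depend on Rheb in the same way. In the hippocampus, mTORC1 signaling downstream of metabotropic glutamate receptors has been tied to protein synthesis-dependent synaptic plasticity.

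RNA libraries held 14801679 to 24067838 counts and RPF libraries 5296006 to 13613673. The median gene moved by less than 0.01 on the log2 scale in every comparison used here. Levels are given as CPM, counts scaled to library size by the trimmed mean of M values (TMM). The summed RNA of 5 neuronal markers ranged from 4962 to 5300 CPM over the libraries, and that of 4 CA3 markers from 75.7 to 100 CPM. For 4 CA1 pyramidal markers it averaged 1555 CPM in WT and 1602 CPM in Tsc2+/- libraries, whereas their summed RPFs averaged 776 and 749 CPM. The summed RNA of 4 dentate granule markers averaged 40.7 CPM in WT and 29.3 CPM in Tsc2+/- libraries, and that of 4 blood genes 24.1 and 10.2 CPM. Both were lower on average in the mutant, and their part in the results below was not tested. In slices of mixed cell types, fewer cells of a type and less RNA per cell cannot be told apart.

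Because mTORC1 acts most strongly on mRNAs that open with a 5′ terminal oligopyrimidine (TOP) motif, the start sites of the complexes' own genes were read from RefSeq (GRCm38.p6, the build named mm10 by the study). Each sequence below gives, on the transcribed strand, the 10 bases before the annotated start in lower case and the 10 bases from it in capitals. Tsc2 and its partner Tsc1 are shown because the results turn on them, Mtor and Mlst8 because theirs are the starts that open with a run of pyrimidines, and Rptor and Rictor because they set mTORC1 and mTORC2 apart.
Tsc2 (chr17:24632618-24632637, minus strand): ccccggaagtACGGGTTGCG
Tsc1 (chr2:28641223-28641242, plus strand): gcttcacgccAGGGGGAGGT
Mtor (chr4:148448572-148448591, plus strand): cctccccaccTCCCTGGCCT
Mlst8 (chr17:24479069-24479088, minus strand): tcggcccggcTTCTATCGAC
Rptor (chr11:119602895-119602914, plus strand): gggggaagggAGGACGGAAC
Rictor (chr15:6708371-6708390, plus strand): ggtttccggtGTTGTGACTG
A start was counted as TOP-like when it was a C followed by C or T at each of the next 4 bases. Of the 9 members with a window (Deptor had no entry), 0 met this. Over all 27025 genes with a window, 673 did (2.49%). Mtor opened with 5 pyrimidines and Mlst8 with 4, both from a T, and the other 7 had a purine as first base. The annotated start is not a measured one, so these letters describe the annotation only.

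Tsc2 lies at chr17:24595816-24632676 on the minus strand, and its longest RefSeq mRNA has 6353 bases with 5445 coding. Its 3′ end overlaps Pkd1 over 699 bases. Mlst8 (chr17:24473550-24479114) is the member nearest to the deleted gene, 116.7 kb away, and overlaps Bricd5 over 1922 bases. Whether the counting used strand is not given in the sources used here, so reads from the overlapped stretches cannot be assigned with certainty. The counts are per gene, and transcripts of the deleted allele that still hold other exons cannot be told apart from those of the intact one.

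Tsc2 was lower in Tsc2+/- slices in both assays, and it was the one member that passed the test. In RNA, it had 193, 195 and 186 CPM in the WT vehicle libraries (replicates 1, 2 and 3), and 199, 202 and 214 CPM after DHPG. In Tsc2+/- it had 136, 128 and 137 CPM in vehicle and 129, 133 and 135 CPM after DHPG. All 6 mutant libraries lay below all 6 WT libraries, a separation seen in 0.234% of the RNA genes tested.

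The RNA of Tsc2 fell by 0.52 on the log2 scale in vehicle (SE 0.05, 95% interval −0.63 to −0.41, adjusted p = 2.03e-07, edgeR quasi-likelihood test with Benjamini-Hochberg adjustment). After DHPG it fell by 0.63 (SE 0.05, interval −0.74 to −0.52, adjusted p = 6.41e-10). Averaged over both treatments the mutant level was 0.671 times that of WT (interval 0.636 to 0.708, lower in 6 of 6 contrasts of same-numbered libraries). In each of these comparisons 1 of the 10 members was called at an adjusted p under 0.1, against 0.0896% of all RNA genes in vehicle, 0.0482% after DHPG and 0.227% averaged.

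Footprints of Tsc2 were likewise separated by genotype. The WT vehicle libraries had 135, 125 and 138 CPM and the WT DHPG libraries 128, 123 and 146 CPM. The mutant libraries had 81.2, 79.3 and 77.8 CPM in vehicle and 76.5, 83.0 and 84.5 CPM after DHPG. Again the 6 libraries of each genotype did not overlap, which held for 0.326% of the RPF genes tested.

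RPFs of Tsc2 fell by 0.74 on the log2 scale in vehicle (SE 0.07, interval −0.89 to −0.58, adjusted p = 4.03e-07, edgeR) and by 0.70 after DHPG (SE 0.07, interval −0.85 to −0.55, adjusted p = 1.10e-06). The averaged level was 0.608 times WT (interval 0.564 to 0.654), lower in 6 of 6 contrasts. Of the 10 members 1 was called in each RPF comparison, against 0.0233% of all RPF genes in vehicle, 0.0155% after DHPG and 0.0621% averaged. The value of a halving lay outside the interval in both assays, both treatments and the average.

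Translational efficiency (TE), tested as the difference between the log2 changes of RPF and of RNA, had a negative estimate for Tsc2 but was not called. It was −0.21 in vehicle (SE 0.09, interval −0.39 to −0.03, unadjusted p = 0.0267, adjusted p = 0.866, edgeR), −0.06 after DHPG (SE 0.09, interval −0.25 to 0.12) and −0.14 averaged (SE 0.06, interval −0.27 to −0.01, adjusted p = 0.996). The 6 contrasts of same-numbered lysates were below 0 in 5. No gene at all was called for TE between genotypes, which is 0% of 12785 in vehicle, after DHPG and averaged, while 725, 388 and 573 genes had an unadjusted p under 0.05. DESeq2 called 0 of the 10 members too, and 1, 0 and 0 of all genes.

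**Figure D1:**
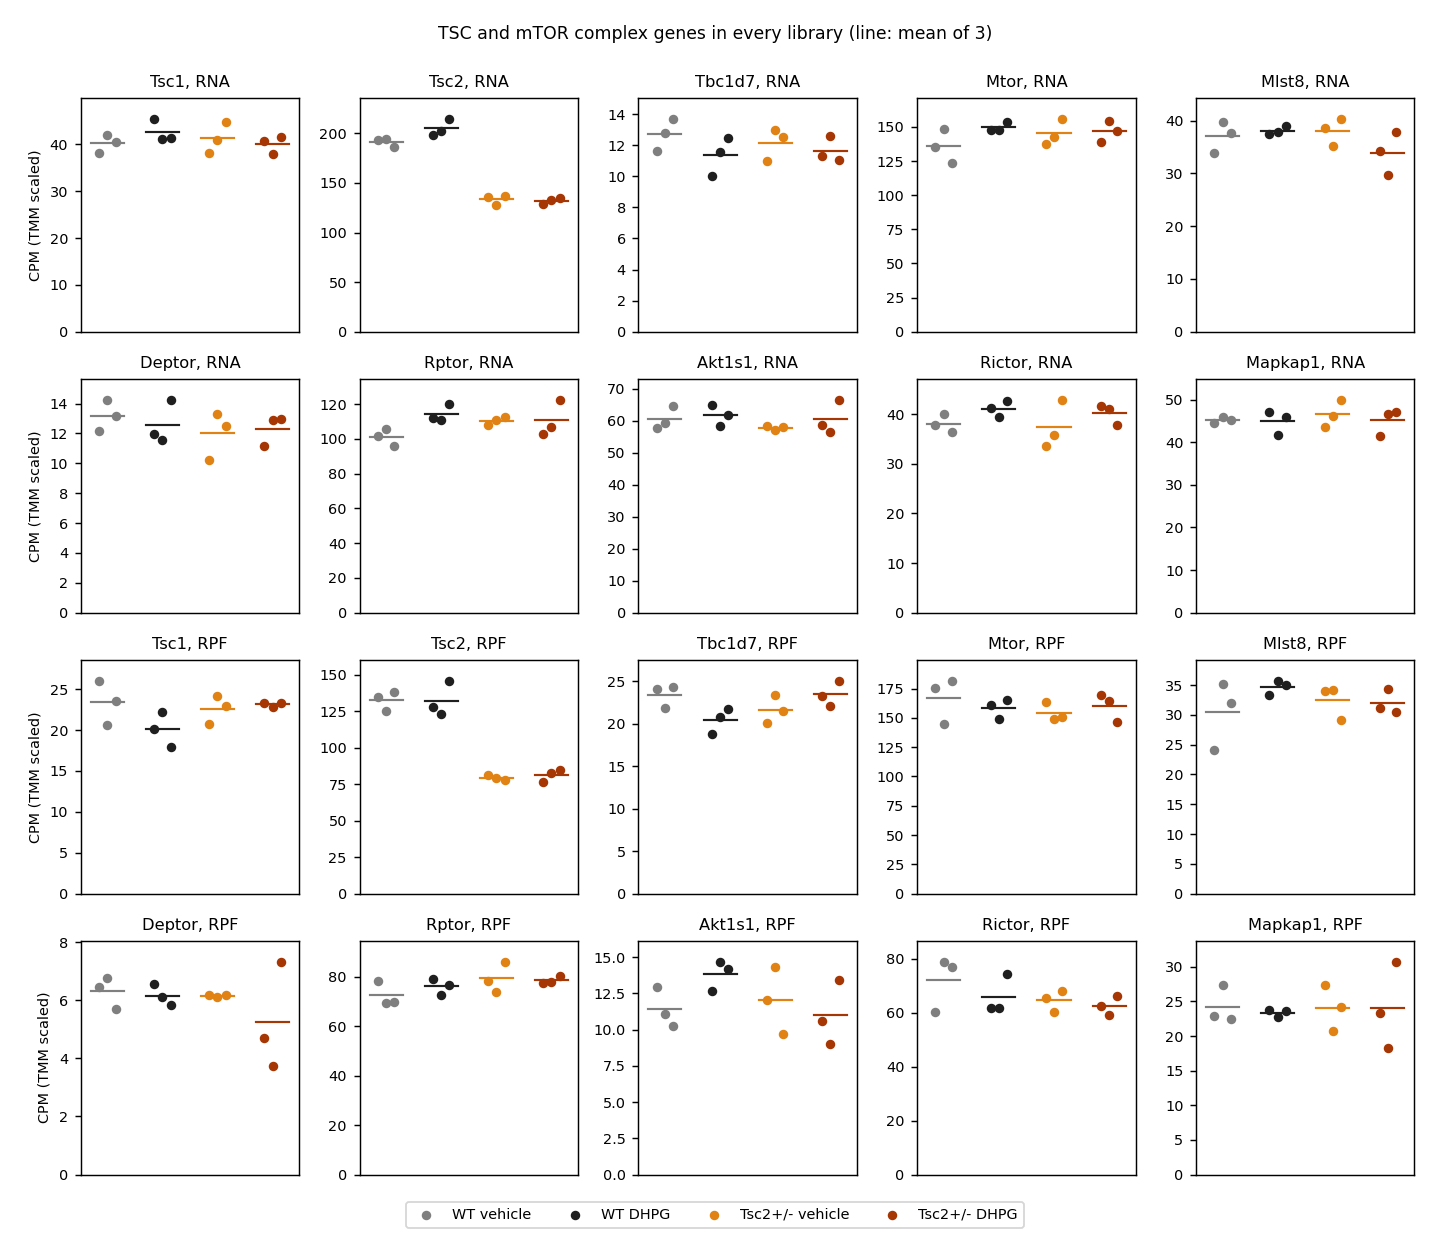
TMM-scaled CPM (y axis, from 0) of the 10 genes in each of the 24 libraries, RNA in the upper 2 rows and RPF in the lower 2, with a point per library and a line at the mean of 3. Tsc2 stands at 186 to 214 CPM in WT and 128 to 137 CPM in Tsc2+/- RNA, and the other 9 genes overlap between the genotypes.

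The partners of TSC2 in the complex were not called in RNA. Tsc1, a large coiled-coil protein, had 38.2, 42.0 and 40.5 CPM in WT vehicle, 45.4, 41.2 and 41.3 in WT DHPG, 38.2, 40.9 and 44.8 in Tsc2+/- vehicle and 40.7, 37.8 and 41.6 in Tsc2+/- DHPG. The 4 groups overlapped. Its averaged log2 difference between genotypes was −0.03 (SE 0.06, interval −0.14 to 0.09, adjusted p = 0.980, edgeR), that is, from −9.22% to 6.29%.

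Tbc1d7 RNA was at 11.6, 12.8 and 13.7 CPM in WT vehicle and 10.98, 13.0 and 12.5 CPM in Tsc2+/- vehicle, with 10.1, 11.6 and 12.5 CPM and 11.3, 12.6 and 11.1 CPM after DHPG. These groups overlapped too. Its averaged difference was −0.01 (SE 0.09, interval −0.19 to 0.16).

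In RPFs the DHPG libraries of both partners were separated by genotype, with no call. Tsc1 had 20.1, 22.2 and 17.99 CPM in WT DHPG and 23.3, 22.8 and 23.4 CPM in Tsc2+/- DHPG, and the groups did not overlap. The difference was 0.21 (SE 0.13, interval −0.05 to 0.47, unadjusted p = 0.115). Tbc1d7 had 18.8, 20.8 and 21.8 CPM against 23.3, 22.1 and 25.0 CPM, with a difference of 0.21 (SE 0.12, interval −0.04 to 0.46, unadjusted p = 0.0958). With Tsc2, these made 3 of 10 members whose DHPG groups did not overlap in RPF, against 10% of all RPF genes.

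The vehicle libraries of the same genes were not separated. Tsc1 footprints had 26.0, 20.6 and 23.6 CPM in WT and 20.7, 24.1 and 23.0 CPM in Tsc2+/-, and those of Tbc1d7 24.1, 21.8 and 24.3 CPM and 20.05, 23.3 and 21.5 CPM. Both overlapped, with differences of −0.05 (SE 0.13) and −0.12 (SE 0.12). The TE difference of Tsc1 between genotypes was −0.08 in vehicle (SE 0.15) and 0.30 in DHPG (SE 0.15, interval 0.00 to 0.59, unadjusted p = 0.0485, adjusted p = 0.9996, edgeR).

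The ratio of a partner to Tsc2 within a library does not depend on the scaling of libraries. As Tsc2 is the denominator, it restates the decrease of Tsc2 given above and is no separate evidence. The log2 ratio of Tsc1 to Tsc2 counts was −2.26 ± 0.09 in WT and −1.71 ± 0.09 in Tsc2+/- RNA (SD, n = 6 each), a difference of 0.55. In RPFs it was −2.61 ± 0.22 and −1.81 ± 0.10, a difference of 0.80. The ratio of Tbc1d7 to Tsc2 differed by 0.56 in RNA and 0.76 in RPFs. In all 4 cases the genotypes did not overlap and the exact two-sided permutation test over samples, with labels permuted within treatment, gave p = 0.005, the smallest of 400 permutations (adjusted p = 0.01 over the 8 ratios tested). With labels permuted within the replicate block the adjusted p of Tsc1/Tsc2 and Tbc1d7/Tsc2 was 0.0625 in both assays. The partner-to-Tsc2 ratio was 1.46 times WT for Tsc1 and 1.48 times WT for Tbc1d7 in RNA, and 1.74 and 1.69 times WT in RPFs.

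**Figure D2:**
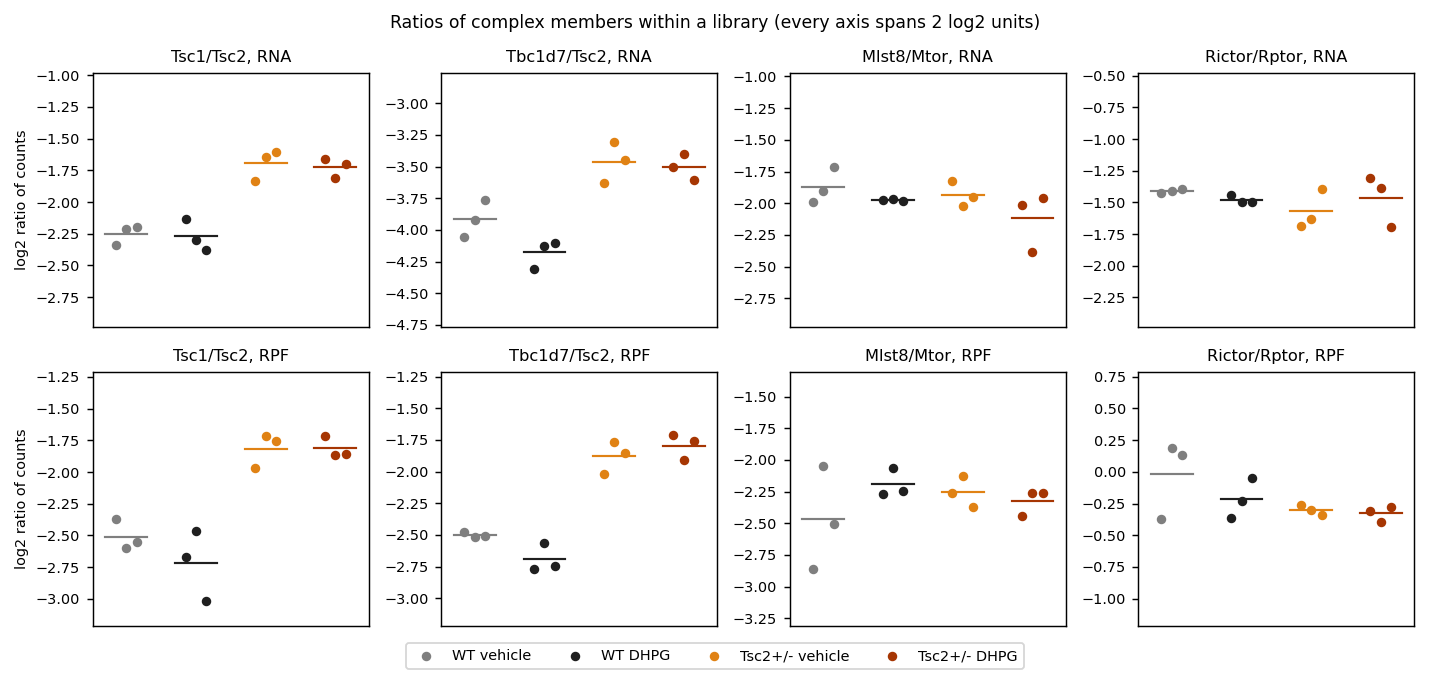
Log2 ratio of the counts of 2 members within each library (y axis, 2 log2 units in every panel), RNA above and RPF below, with a point per library and a line at the mean of 3. Tsc1/Tsc2 and Tbc1d7/Tsc2 are separated by genotype in both assays, whereas Mlst8/Mtor and Rictor/Rptor overlap.

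The kinase gene Mtor and the subunits common to both mTOR complexes were not called between genotypes. Mtor RNA had 135, 148 and 124 CPM in WT vehicle and 137, 143 and 156 CPM in Tsc2+/- vehicle, and the 4 groups overlapped. Its averaged difference was 0.03 in RNA (SE 0.04, interval −0.05 to 0.12) and −0.05 in RPFs (SE 0.05, interval −0.15 to 0.06). Its TE in vehicle was −0.20 (SE 0.10, interval −0.40 to 0.00, unadjusted p = 0.0542), and this value depended on single lysates. The WT vehicle libraries had 175, 145 and 181 CPM of Mtor footprints, and the TE estimate was −0.34 without replicate 2 of that group and −0.03 without replicate 3.

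Mlst8, whose product binds the kinase domain in both complexes, had 37.5, 37.8 and 38.9 CPM of RNA in WT DHPG and 34.3, 29.6 and 37.9 CPM in Tsc2+/- DHPG. Its RNA difference there was −0.17 (SE 0.09, interval −0.34 to 0.00, unadjusted p = 0.0541), and in vehicle it was 0.03 (SE 0.08). The averaged RPF difference was −0.00 (SE 0.08, interval −0.17 to 0.16). The log2 ratio of Mlst8 to Mtor differed by −0.10 in RNA (exact permutation p = 0.26) and 0.04 in RPFs (exact permutation p = 0.785), with both genotypes overlapping.

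Deptor, an inhibitor that binds mTOR, had 10.2 to 14.2 CPM of RNA and 3.74 to 7.32 CPM of RPFs, from 20 to 90 footprint counts per library, all of them even numbers in replicates 2 and 3 as for nearly all genes there. Its averaged differences were −0.09 in RNA (SE 0.09) and −0.14 in RPFs (SE 0.17, interval −0.48 to 0.20). The RPF interval corresponds to −28.1% to 15.2%, so the data do not exclude a change within it.

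Among the mTORC1 subunits, Rptor, the scaffold that recruits substrates, had 102, 106 and 96.1 CPM of RNA in WT vehicle and 108, 111 and 113 CPM in Tsc2+/- vehicle. The vehicle groups did not overlap, and the difference was 0.12 (SE 0.06, interval −0.00 to 0.25, unadjusted p = 0.0534, adjusted p = 0.983, edgeR, higher in 3 of 3 contrasts). With libraries left out it ranged from 0.05 (without WT vehicle replicate 3) to 0.17, and 4 of 22 alternatives had an unadjusted p under 0.05, with none called. With Tsc2, it made 2 of 10 members with separate vehicle groups in RNA, against 8.2% of all RNA genes. In RPFs 1 of 10 had separate vehicle groups, namely Tsc2, against 8.29%. After DHPG the Rptor RNA difference was −0.05 (SE 0.06), the groups overlapped, and 1 of 10 members (Tsc2) had separate RNA groups, against 9.44% of all RNA genes.

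Akt1s1, which encodes the mTORC1 inhibitor PRAS40, showed averaged differences of −0.05 in RNA (SE 0.05, interval −0.15 to 0.05) and −0.11 in RPFs (SE 0.13, interval −0.37 to 0.15). Its footprints after DHPG were 12.7, 14.7 and 14.2 CPM in WT and 10.6, 8.97 and 13.5 CPM in Tsc2+/-. The groups overlapped by one library, with a difference of −0.30 (SE 0.18, interval −0.66 to 0.06, unadjusted p = 0.102).

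The mTORC2 subunits were not called either. Rictor, the scaffold of mTORC2, had 60.4, 78.8 and 76.8 CPM of RPFs in WT vehicle and 65.6, 60.2 and 68.1 CPM in Tsc2+/- vehicle. The averaged RPF difference was −0.11 (SE 0.06, interval −0.24 to 0.02, unadjusted p = 0.0961). It ranged from −0.20 (without replicate 1) to −0.05 (without replicate 2) with libraries left out, and 3 of 22 alternatives had an unadjusted p under 0.05, with none called. The averaged RNA difference was −0.03 (SE 0.06, interval −0.15 to 0.09). The log2 ratio of Rictor to Rptor, which sets mTORC2 against mTORC1 within a library, differed by −0.07 in RNA (exact permutation p = 0.34) and −0.20 in RPFs (exact permutation p = 0.125, adjusted p = 0.2), with overlap in both.

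Mapkap1, which encodes the mTORC2 subunit SIN1, had 41.5 to 49.9 CPM of RNA and 18.3 to 30.7 CPM of RPFs over all libraries. Its averaged differences were 0.02 in RNA (SE 0.05, interval −0.09 to 0.13) and 0.02 in RPFs (SE 0.10, interval −0.19 to 0.22).

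Over the 9 members other than Tsc2, 0 were called between genotypes in vehicle, in DHPG or averaged, in RNA, RPF or TE, by edgeR and by DESeq2. Of all genes in these 3 comparisons, edgeR called 13, 7 and 33 in RNA, 3, 2 and 8 in RPF, and 0 in TE. DESeq2 called 13, 7 and 38 in RNA, 10, 3 and 9 in RPF, and 1, 0 and 0 in TE. By edgeR, 0 of the 9 had an unadjusted p under 0.05 in RNA or RPF, and 1 (Tsc1, in DHPG) in TE. Among all genes the shares with such a p were 4.9%, 4.64% and 6.12% in RNA in vehicle, in DHPG and averaged, 6.55%, 4.13% and 6.63% in RPF, and 5.67%, 3.03% and 4.48% in TE. Their median averaged log2 difference was −0.03 in RNA, with 3 higher and 6 lower, and −0.00 in RPFs, with 4 higher and 5 lower, beside medians of −0.00 in both for all genes tested. The intervals of the averaged difference ran at most from −16.5% (Deptor) to 11.9% (Tbc1d7) in RNA, from −28.1% (Deptor) to 20.01% (Tsc1) in RPFs, and from −23.9% (Deptor) to 24.8% (Tsc1) in TE. A missed threshold does not show that these genes were the same in both genotypes.

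**Figure D3:**
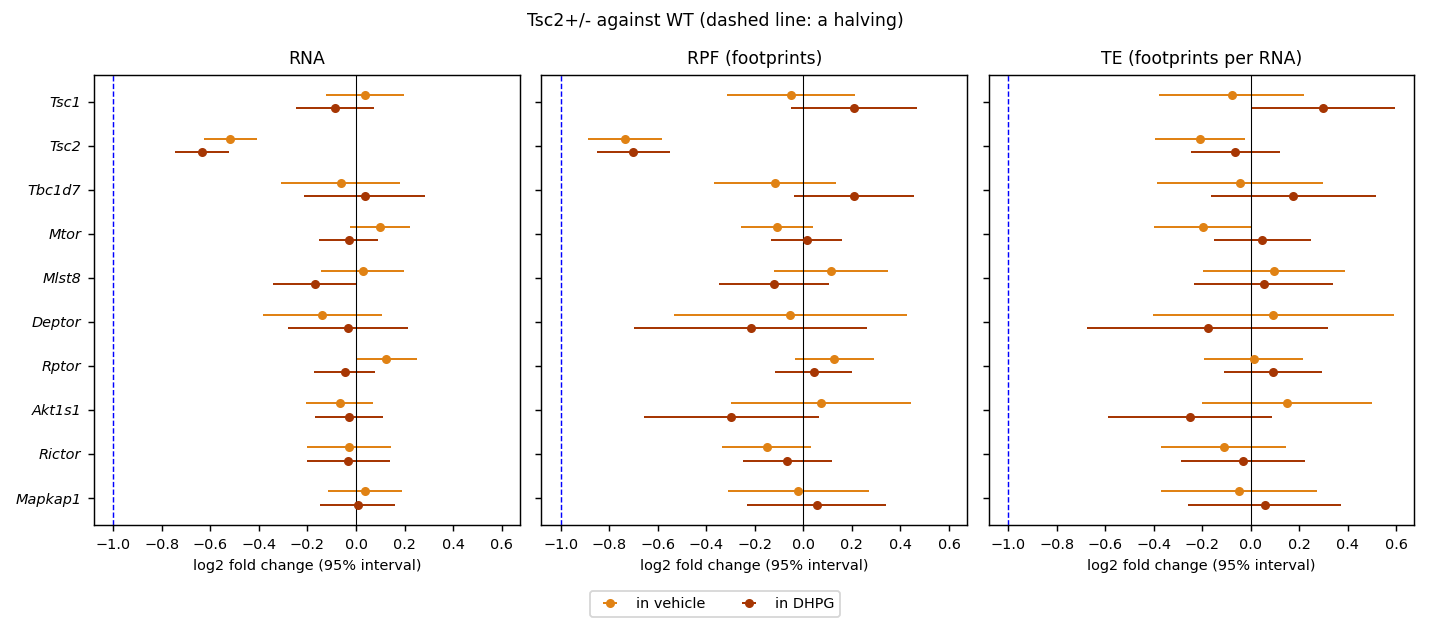
Log2 fold change of Tsc2+/- against WT (x axis, with 95% intervals from the edgeR fit) for the 10 genes in RNA, RPF and TE, in vehicle and in DHPG. Tsc2 is at −0.52 and −0.63 in RNA and at −0.74 and −0.70 in RPF, to the right of the dashed line of a halving, and the intervals of the other 9 genes include 0 in RNA and RPF.

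DHPG for 5 min changed none of the 10 members past the threshold in either genotype. In WT, 0 of 10 were called in RNA, against 0% of all genes, 0 of 10 in RPF, against 0.0311%, and 0 of 10 in TE, against 0.0469%. In Tsc2+/- 0 of 10 were called in RNA, RPF and TE, against 0% of all genes in each. DESeq2 called 0 members in each of these comparisons as well. Of all genes it called 0 in RNA, 14 in RPF and 101 in TE in WT, and 0 in each assay in Tsc2+/-. At an unadjusted p under 0.05 by edgeR there were 2 members in WT RNA, 0 in WT RPF and 1 in WT TE, and 0 in each assay in Tsc2+/-. Among all genes the shares with such a p were 6.45% in RNA, 6.71% in RPF and 9.14% in TE in WT, and 4.32%, 4.03% and 3.65% in Tsc2+/-.

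The WT RNA values were those of Rptor and Mtor. Rptor had 102, 106 and 96.1 CPM in vehicle and 112, 111 and 120 CPM after DHPG, which did not overlap, with a difference of 0.17 (SE 0.06, interval 0.05 to 0.30, unadjusted p = 0.00866, adjusted p = 0.714, edgeR). Mtor had 135, 148 and 124 CPM in vehicle and 148, 148 and 154 CPM after DHPG. Its difference was 0.14 (SE 0.06, interval 0.02 to 0.27, unadjusted p = 0.0260, adjusted p = 0.729, edgeR) and was above 0 in 2 of 3 contrasts. The size of both values depended on single libraries. An unadjusted p under 0.05 (edgeR or DESeq2) was found in 20 of 22 alternatives for Rptor and 17 of 22 for Mtor. With libraries or replicate numbers left out, Rptor ranged from 0.10 (without WT vehicle replicate 3) to 0.23 and Mtor from 0.05 (without WT vehicle replicate 3) to 0.22, uncalled throughout. Tsc2 RNA was higher after DHPG in WT in 3 of 3 contrasts, by 0.10 (SE 0.05, interval −0.01 to 0.21). Tsc2 and Rptor made 2 of 10 members with separate WT groups in RNA, against 10.3% of all RNA genes, and Tbc1d7 was the 1 of 10 in RPF, where it was lower by −0.20 (SE 0.12), against 8.96%. In Tsc2+/- 0 of 10 had separate groups, against 8.69% of RNA genes and 9.42% of RPF genes.

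In footprints per RNA, Mtor was at −0.21 after DHPG in WT (SE 0.10, interval −0.41 to −0.01, unadjusted p = 0.0397, adjusted p = 0.515, edgeR). It was called without WT vehicle replicate 2, at −0.35 and an adjusted p of 0.0792, when 364 genes were called for TE in place of 6. It was −0.05 without WT vehicle replicate 3, and over its alternatives the adjusted p ranged from 0.0792 to 0.959. Tsc1 was at −0.29 (SE 0.15) and Rictor at −0.23 (SE 0.13), and neither passed an unadjusted p under 0.05. The other 7 members lay between −0.10 and 0.24.

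Whether DHPG acted differently on the members in the 2 genotypes was tested as an interaction. In RNA, RPF and TE 0 of 10 members were called, against 0% of all genes in each assay, and 0 had an unadjusted p under 0.05 by edgeR or by DESeq2. Over all genes such a p was found by edgeR in 3.47%, 3.81% and 4.07%. Among the members the smallest p was that of Rptor RNA, at −0.17 (SE 0.09, interval −0.35 to 0.01, unadjusted p = 0.0597, edgeR), where the DHPG change was 0.17 in WT and 0.00 in Tsc2+/-. For Tbc1d7 RPFs the interaction was 0.33 (SE 0.17, interval −0.03 to 0.68), with DHPG changes of −0.20 in WT and 0.12 in Tsc2+/-. For Tsc2 itself it was −0.12 in RNA (SE 0.08) and 0.03 in RPFs (SE 0.10). The number of members at an unadjusted p under 0.05 (edgeR) depended on the setting. With RPF counts of replicates 2 and 3 halved it was 1 in RPF and 1 in TE. Without WT vehicle replicate 2 it was 3 in RNA, 2 in RPF and 2 in TE. In every alternative 0 members were called for the interaction.

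**Figure D4:**
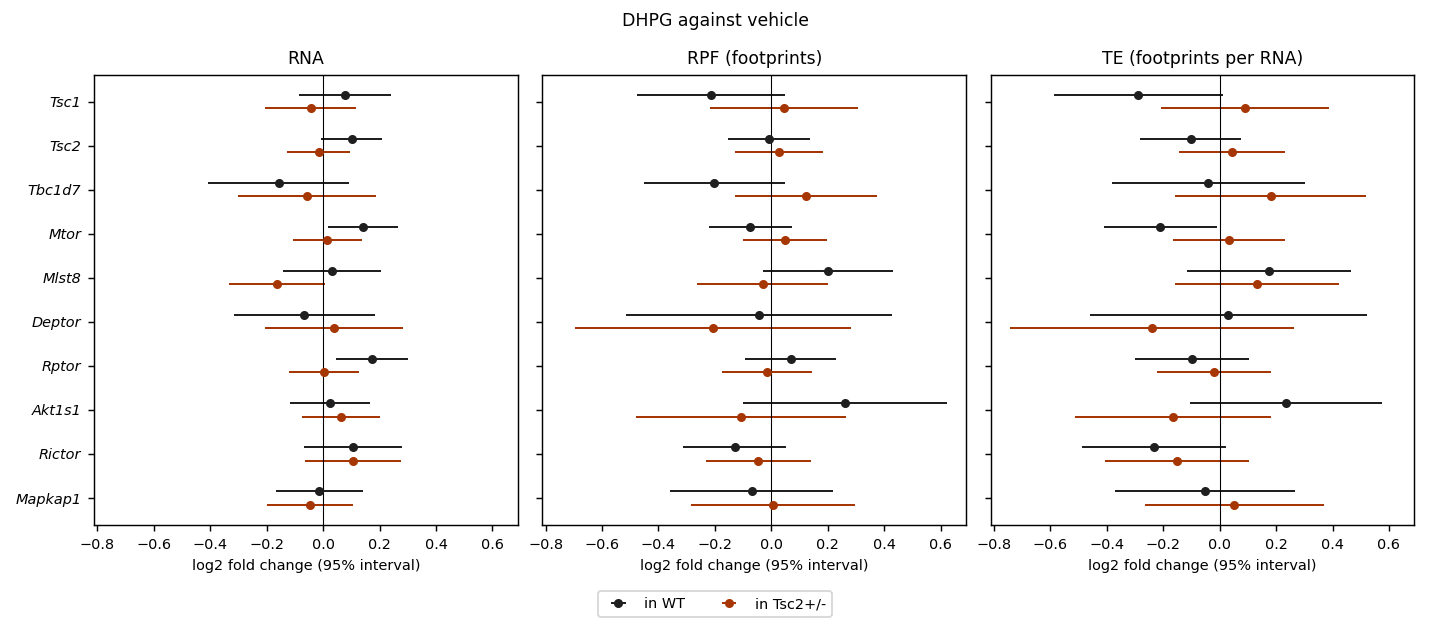
Log2 fold change of DHPG against vehicle (x axis, with 95% intervals from the edgeR fit) for the 10 genes in RNA, RPF and TE, in WT and in Tsc2+/-. The intervals include 0 except those of Mtor and Rptor in WT RNA and of Mtor in WT TE, none of which was called.

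The members were compared with each other per kilobase of mRNA for RNA and per kilobase of coding sequence for RPFs. In WT vehicle Tsc2 RNA was at 30.1 ± 0.73 CPM per kb (SD, n = 3), above 83.1% of the RNA genes with a known length, and Akt1s1 at 26.8 ± 1.53. The order of these 2 genes depended on the length assigned to them. With the mean length of a gene's RefSeq mRNAs in place of the longest, Akt1s1 was at 36.3 and Tsc2 at 30.7 CPM per kb, so that Akt1s1 was the higher of the pair in WT too. In RNA the partners of Tsc2 stood much lower, Tbc1d7 at 10.1 ± 0.82 and Tsc1 at 5.21 ± 0.25 CPM per kb. Below Tsc2 and Akt1s1 came Mtor at 15.8 ± 1.44, Rptor at 14.4 ± 0.71, Mapkap1 at 12.5 ± 0.20 and Mlst8 at 11.02 ± 0.87. The neighbours Mtor and Rptor, and Mlst8 and Tbc1d7, overlapped in their libraries. The mTORC2 scaffold Rictor had 4.09 ± 0.19 and Deptor 1.54 ± 0.12 CPM per kb, where the median gene had 7.11.

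In Tsc2+/- vehicle the Tsc2 RNA level was 21.0 ± 0.76 CPM per kb and that of Akt1s1 25.5 ± 0.32, both with the longest mRNA. The ranks of the other 8 members by mean RNA level were the same in the 4 groups. In RPFs Tsc2 moved from rank 3 of 10 in both WT groups (24.6 ± 1.29 CPM per kb in vehicle) to rank 7 in Tsc2+/- vehicle (14.7 ± 0.31) and rank 6 in Tsc2+/- DHPG (15.1 ± 0.79).

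Footprints per RNA varied widely among the members. Relative to the median gene in WT vehicle, on the log2 scale, Akt1s1 was lowest at −2.08 ± 0.24 (SD, n = 3, percentile 4.66), and Tsc2 next at −1.47 ± 0.11 (percentile 10.9). Rptor at −0.83, Mapkap1 at −0.83, Tsc1 at −0.80 and Mtor at −0.70 were close to one another and overlapped. Tbc1d7 at 0.32, Mlst8 at 0.39, Rictor at 0.61 and Deptor at 0.63 were above the median gene. In all 4 groups Rptor, Akt1s1 and Mapkap1 lay below the median gene and Rictor above it, so that the 2 subunits of mTORC2 were on opposite sides. Akt1s1 and Tsc2 were the lowest 2 in every group. These values too depend on the length assigned to each gene.

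**Figure D5:**
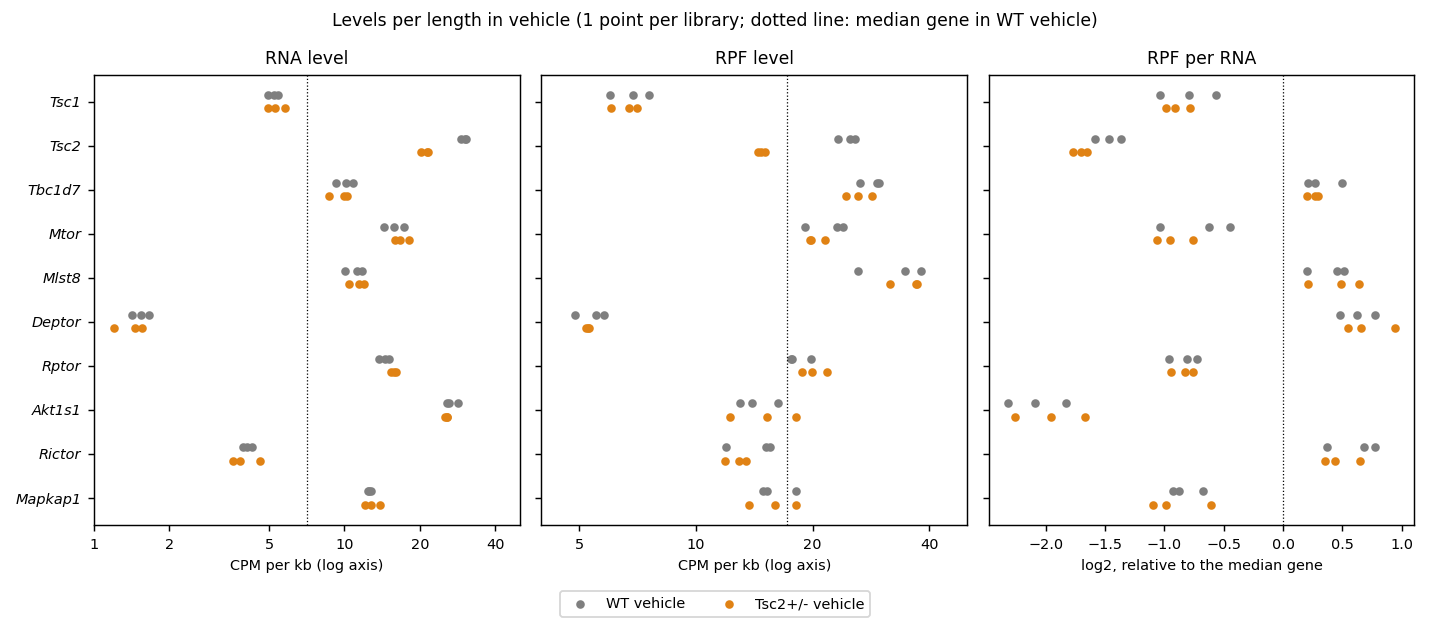
RNA and RPF levels in CPM per kb (x axes, log scale) and RPF per RNA on the log2 scale relative to the median gene, for the 10 genes in WT and Tsc2+/- vehicle, with a point per library. The genotypes are apart for Tsc2 in RNA and RPF and, by a small margin, for Rptor in RNA. Separate vehicle groups were found for 8.2% of all RNA genes and 8.29% of all RPF genes. Tsc2 is also apart in RPF per RNA, where no share over all genes was computed and its TE difference was not called. In RPF per RNA, Akt1s1 and Tsc2 lie lowest in both genotypes.

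The genes around these complexes were described by 4 lists. Of the 27 inputs to the TSC complex (such as insulin receptor signaling, Akt and AMPK subunits), the 9 genes of Rheb and mTOR complex assembly, the 19 mTORC1 outputs (such as S6 kinases, 4E-BPs and Ulk1) and the 6 mTORC2 outputs, all were tested in both assays, and 0 were called in any of the genotype, DHPG or interaction comparisons in RNA, RPF or TE (edgeR). Over all genes at most 0.227% were called (RNA, genotype averaged), and 0% in TE between genotypes. The 0 calls in the lists were thus near the share over all genes. Counts at an unadjusted p under 0.05 (edgeR) for the averaged genotype difference follow in the order of the lists. In RNA they were 0 higher and 2 lower, 0 and 0, 1 and 0, and 1 and 1, against 6.12% of all genes. In RPFs they were 0 and 0, 1 and 1, 1 and 1, and 0 and 1, against 6.63%. In TE they were 0 and 0, 1 and 1, 0 and 1, and 0 and 1, against 4.48%. The medians of the 4 lists in RNA were 0.01, −0.04, 0.01 and 0.02. For RPFs they were 0.01, 0.02, −0.02 and −0.03, beside −0.00 for all genes in both.

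One gene of these lists had an unadjusted p under 0.01 for the averaged genotype difference. Sgk1, a kinase activated through mTORC2, had 83.1, 78.9 and 80.8 CPM of RNA in WT vehicle, 76.0, 82.3 and 84.0 in WT DHPG, 71.5, 79.4 and 76.0 in Tsc2+/- vehicle and 67.8, 72.0 and 78.0 in Tsc2+/- DHPG. The genotypes overlapped. Its averaged RNA difference was −0.13 (SE 0.05, interval −0.22 to −0.03, unadjusted p = 0.00885, adjusted p = 0.595, edgeR), and in RPFs it was −0.09 (SE 0.05, adjusted p = 0.756). Sgk1 footprints in vehicle were 166, 162 and 161 CPM in WT and 144, 152 and 148 CPM in Tsc2+/-. These groups did not overlap, as for 8.29% of all RPF genes. The RPF difference was −0.14 in vehicle (SE 0.07, unadjusted p = 0.0362, adjusted p = 0.730, edgeR) and −0.03 after DHPG (SE 0.06).

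The genes whose pattern over the 8 group means (4 groups in 2 assays, log2 CPM centred within an assay) was nearest to that of Tsc2 were Lsr, Acvrl1 and Gpatch3. Their Euclidean distances to Tsc2 were 0.239, 0.284 and 0.377, where the median over 12785 genes was 0.945. None of the other 9 members was among the 7 nearest genes. In RNA the centred means of Lsr were 0.31 and 0.20 in WT vehicle and DHPG and −0.30 and −0.21 in the Tsc2+/- groups, where Tsc2 had 0.24, 0.34, −0.28 and −0.30. As they were picked for this likeness, no test is given for them.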

How the data were processed

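RNA-seq (12 libraries) and ribosome profiling (12 libraries) of hippocampal slices were grouped by the genotype, treatment and assay in the labels into 8 groups of 3, and 0 columns were without a sample. The authors trimmed and filtered reads, removed rRNA and tRNA, mapped to mm10 with TopHat2, kept unique reads, removed duplicates by molecular identifiers, and counted with RSEM, RNA over whole RefSeq transcripts and RPFs over coding sequence with both ends trimmed. The deposited files hold expected counts in whole numbers, not normalized. Of the counts above 0 in replicates 2 and 3 of RPF, 97.9% to 98.5% were even numbers, against 48.2% to 49.0% in replicate 1, the cause of which is not given in the sources used here.

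Genes were filtered with filterByExpr (minimum count 10), scaled by TMM and tested in R 4.3.3 with the edgeR 4.0.16 quasi-likelihood test (robust, two-sided) on all 12 libraries per assay. The model held group and the replicate number. The number was taken as the study's batch, which the labels do not state. TE was tested as the assay by group interaction over all 24 libraries. This main TE model did not pair the RNA and RPF libraries of a lysate. The alternative with lysates as a block did, and it called 0 members in any comparison. The Benjamini-Hochberg adjustment ran over 14516 genes in RNA, 12877 in RPF and 12785 in TE, and the threshold for a call was 0.1. The standard error was taken from the F statistic, and intervals from the degrees of freedom of the fit. Per the study's methods, same-group libraries are biological replicates made from pooled mice, so p-values measure the spread between pools. Intervals cover the spread between libraries, and precision is limited by the counts, above all for Deptor and Akt1s1. The log2 CPM used a prior count of 2. CPM per kb divided by the longest RefSeq mRNA (GRCm38.p6), or for RPFs by the longest coding sequence less 60 bases.

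All 10 members were named. From the 4 lists, genes were to be named if called, or else up to 3 per list with an unadjusted p under 0.01 for the averaged genotype difference. The 3 genes nearest to Tsc2 were named. The members and lists were chosen with earlier results of these data known. Alternatives were DESeq2 1.42.0, ComBat (sva 3.50.0) followed by DESeq2, a model without replicate number, RLE scaling, no filter, only the groups compared, an adjusted p under 0.05, halved RPF counts of replicates 2 and 3, lysates as a block, and leaving out replicate numbers or libraries. The fit without robust estimation was chosen after seeing the data. The scripts were tested on simulated data.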

Additional observations from a re-analysis of the deposited data

How the results depend on the processing

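Tsc2 stayed lower in Tsc2+/- and past the threshold in RNA and RPF in all 133 values recomputed under the alternatives, which ran from −0.78 to −0.45. Of 420 recomputed counts of members called, 419 were unchanged. The exception was TE for DHPG in WT, where leaving out single lysates or replicate numbers gave 0 to 1 members, the 1 being Mtor without WT vehicle replicate 2. Averaged Tsc2 TE ranged from −0.20 to −0.087 when replicates were left out, uncalled throughout. With a replicate number left out, the log2 ratio Tsc1/Tsc2 differed by 0.51 to 0.58 in RNA and 0.71 to 0.86 in RPF, and Tbc1d7/Tsc2 by 0.51 to 0.64 and 0.73 to 0.79. Without replicate 2 or 3 these 4 ratios had an adjusted p of 0.111, since 2 replicates allow no exact permutation p under 0.0556. Rictor/Rptor in RPF ranged from −0.34 to −0.12 and had an adjusted p of 0.0889 without replicate 1. For the other 9 members between genotypes, 88 of 1809 recomputed values moved beyond the spread and 141 turned sign, with 0 called. For DHPG in WT, 28 of 680 values of the 10 members moved, 32 turned sign and 1 became called (Mtor TE).

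Same-numbered libraries deviated together weakly (r of 0.02 to 0.14 in RNA and 0.03 to 0.26 in RPF), not over 0.1 in every pair. Libraries of different numbers and groups had r of −0.13 to 0.02 in RNA and −0.19 to 0.07 in RPF. These values do not show whether animals were paired. The number stands in the model as a replicate block, taken as the study's batch, and not as a pairing of the same animals. With no replicate block, Tsc2 was at −0.52 in vehicle, −0.64 after DHPG and −0.58 averaged in RNA, and at −0.74, −0.70 and −0.72 in RPF. Over all genes the averaged calls then fell from 33 to 16 in RNA and from 8 to 4 in RPF, while 1 member, Tsc2, was called in each. With labels permuted within the replicate block Tsc1/Tsc2 and Tbc1d7/Tsc2 had an adjusted p of 0.0625 in both assays (exact permutation test), still under 0.1. With these changes of the replicate block, no call on the members or ratios changed.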
